A study of Arabidopsis thaliana with 6 samples.

Results

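The 12S cruciferins and the vicilin-like globulins are the globulin storage proteins of Arabidopsis seeds, and 7 loci of this family were followed during re-establishment of desiccation tolerance (DT) by osmotic stress. They comprise 4 cruciferin loci, namely CRA1 (AT5G44120), CRB (AT1G03880), CRC (AT4G28520) and AT1G03890, and 3 vicilin-like loci, namely PAP85 (AT3G22640), AT2G28490 and AT4G36700. The loci were chosen by name, with earlier results of these data known. Every gene model of each was kept, which gave 12 features of 35986 and 7 of 27981 loci. The gene table gives CRU2 as the symbol of AT1G03880 and CRU3 as that of AT4G28520, and it has no symbol for AT1G03890. One group consisted of germinated Col-0 seeds at radicle protrusion that were kept for 72 h in polyethylene glycol (PEG) at -2.5 MPa, in the dark and at 20 °C (3 arrays). The other consisted of seeds of the same ecotype and stage that were frozen untreated, directly after germination at 22 °C under constant white light (3 arrays). All seeds had first been stratified for 72 h at 4 °C. The 3 arrays of a group are labelled as biological replicates. Seeds had been bulk harvested from at least 2 plants per replicate, and no source used here links these harvests to the array numbers. PEG withholds water from the seeds by lowering the water potential of the solution. The groups thus differed in water potential, light, temperature and time after protrusion, and these cannot be told apart.

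Storage globulins are made during seed maturation as precursors in the endoplasmic reticulum, assembled there and carried to protein storage vacuoles, where vacuolar processing enzymes cleave them into their mature chains. Cruciferins belong to the legumin type and assemble into hexamers in the vacuole, whereas vicilin-like globulins are trimers. Both are built from cupin domains. During germination and seedling growth they are broken down and supply amino acids, and their genes are normally silent after maturation. Transcription of cruciferin genes in the maturing seed depends on the B3 factors ABI3, FUS3 and LEC2, which bind RY elements, and on bZIP factors.

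Expression values were log2 values from Affymetrix arrays, and their level can be compared between arrays for the same feature, but not between features. The median value of an array ranged from 4.81 to 4.97. Values under 4, which made up 38.2 to 41.6 % of an array, were set to 4 for the tests, and this is called the floor. Pairs of PEG arrays had a Pearson's r over all features of 0.986 to 0.992, pairs of untreated arrays of 0.982 to 0.991, and pairs of 1 PEG and 1 untreated array of 0.898 to 0.924. A gene was called where its absolute log2 fold change was 2 or more and its Benjamini-Hochberg adjusted p in limma, over all features, was 0.01 or less. A locus with several gene models is represented by the model of highest mean floored value. The labelled tissue was checked with markers: ICL and MLS, enzymes of the glyoxylate cycle, and PCK1, an enzyme of gluconeogenesis, all of which act in germinated seeds, had values of 10.57 to 11.91 on all arrays. BAN and TT10, which act in the developing testa, lay under 4 on all arrays.

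After PEG, transcripts of 5 of the 7 loci were called higher (CRA1, CRC, PAP85, AT2G28490 and AT4G36700) and none was called lower. Over all 27981 genes, 1.08 % were called higher and 1.64 % lower, or 2.72 % in either direction. These 5 loci were also those of the family that passed the limit on the adjusted p, which 6.59 % of all genes passed with a higher and 8.09 % with a lower value after PEG. Of the 12 features, 10 were called, all higher, against 1.15 % of all features called higher, 1.6 % called lower and 2.75 % called in total. The median log2 fold change was 5.10 for the 7 loci and 0.00 for all genes. In 6 loci every PEG array lay above every untreated array, which held for 18.5 % of all genes with floored values and 21.6 % without the floor. The RNA came from bulked whole seeds, so a change in the share of cells of a type and a change in RNA per cell cannot be told apart in any of these values.

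**Figure D1:**
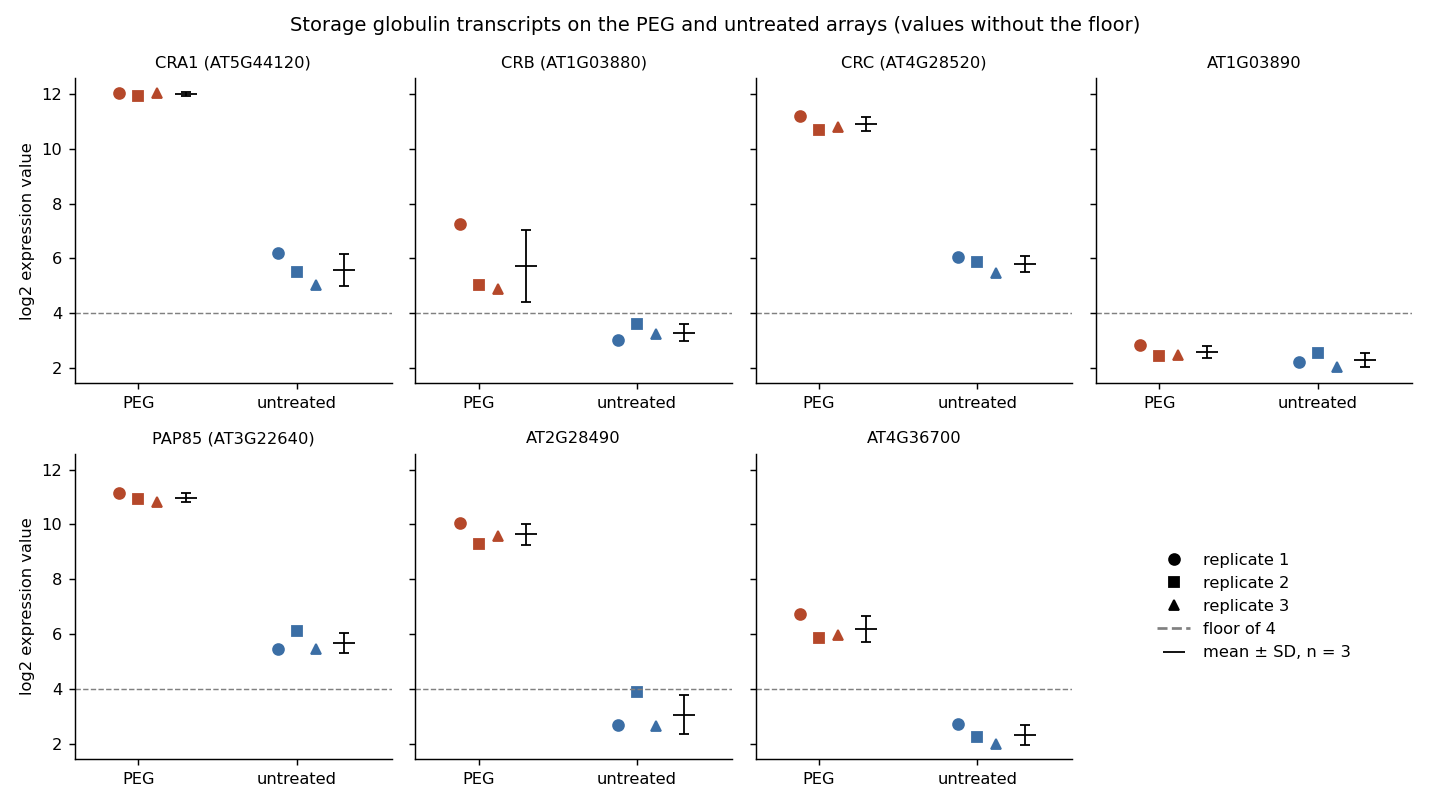
Log2 expression values of the 7 storage globulin loci (vertical axis) on the 3 PEG and 3 untreated arrays, before the floor of 4 (dashed line) was applied. Symbols mark replicates and bars give the mean ± SD (n = 3). CRA1, CRC and PAP85 lie above the floor in both groups, AT2G28490, AT4G36700 and CRB only on the PEG arrays, and AT1G03890 on none.

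Among the cruciferins, CRA1 had the largest change of the family with the floor. It had 12.02, 11.93 and 12.04 on the PEG arrays, against 6.19, 5.50 and 5.03 on the untreated arrays. The PEG arrays of CRA1 lay within 0.11 of each other, while the SD was 0.06 after PEG and 0.58 in untreated seeds (n = 3 each). CRA1 rose 85.7-fold, which is 6.42 on the log2 scale (SE 0.32, limma adjusted p = 0.00084). Its 3 gene models had identical values on every array and count as 1 measurement. With 1 array left out, its log2 fold change was 6.15 to 6.73 and the call was kept in all 6 cases. Of all 35986 features it ranked 3 by rise with the floor and 15 without it.

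CRC rose as well. Its representative model had 11.18, 10.70 and 10.80 on the PEG arrays, against 6.05, 5.87 and 5.46 on the untreated arrays. The groups were 4.65 apart at their nearest arrays, and the spread within either group was under 0.6 of a log2 unit. The log2 fold change was 5.10 (SE 0.22, limma adjusted p = 6.0e-04), or 34.2-fold. The other 3 models of CRC shared 1 set of values that differed by 5.11 between the groups (SE 0.25, adjusted p = 0.00082), so the locus provided 2 different profiles and both were called.

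CRB, which encodes another of the major cruciferin subunits, was not called. It had 7.25, 5.03 and 4.89 on the PEG arrays, against 3.02, 3.63 and 3.24 on the untreated arrays. The groups did not overlap, but PEG replicate 1 lay 1.52 above the mean of the PEG arrays and the other two lay below it, and all untreated arrays lay under the floor. With the floor, the log2 fold change was 1.72 (SE 0.73, limma adjusted p = 0.18). Without the floor it was 2.43 (SE 0.55, limma adjusted p = 0.0072), which passed both limits, and 1.45 % of all genes were then called higher. Leaving out PEG replicate 1 gave 0.96 with the floor (SE 0.05, adjusted p = 0.0043), which passed the limit on p but not that on the fold change. With the floor, all untreated arrays of CRB count as 4, so its SE and p hold no spread among untreated arrays. The same applies to AT2G28490 and AT4G36700 below.

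AT1G03890 lies next to CRB on chromosome 1 in the gene table. It had 2.84, 2.44 and 2.48 on the PEG arrays, against 2.23, 2.57 and 2.06 on the untreated arrays. All 6 values lay under the floor and the groups overlapped, so no fold change is given for this locus with the floor. Without the floor the difference of 0.30 (SE 0.19, limma adjusted p = 0.27) was of the size of the spread within the groups. The arrays therefore gave no measured level for AT1G03890 in either group. Thus 2 of the 4 cruciferin loci were called.

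All 3 vicilin-like loci were called. PAP85, annotated as a vicilin-like seed protein, had 11.16, 10.92 and 10.83 on the PEG arrays, against 5.47, 6.11 and 5.47 on the untreated arrays. Its lowest PEG array lay 4.72 above its highest untreated array. PAP85 rose 39.0-fold, or 5.29 on the log2 scale (SE 0.23, limma adjusted p = 6.0e-04). It stayed called whichever array was omitted (5.18 to 5.50).

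AT2G28490, a cupin of the vicilin-like group, had 10.04, 9.28 and 9.59 on the PEG arrays, against 2.67, 3.88 and 2.64 on the untreated arrays. All untreated values lay under the floor, and untreated replicate 2 lay closest to it. With the floor, the log2 fold change was 5.64 (SE 0.21, limma adjusted p = 4.7e-04), at least 49.7-fold, because the untreated arrays count as 4. Without the floor it was 6.57 (SE 0.34, limma adjusted p = 3.7e-06), so that AT2G28490 and not CRA1 then had the largest change of the family. Its call did not depend on any single array (5.43 to 5.81).

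AT4G36700, the other vicilin-like cupin, had 6.72, 5.87 and 5.97 on the PEG arrays, against 2.73, 2.24 and 2.01 on the untreated arrays. The groups were 3.13 apart, and all untreated values lay under the floor. Its log2 fold change was 2.19 with the floor (SE 0.26, limma adjusted p = 0.0062), at least 4.56-fold, and 3.86 without it (SE 0.27, limma adjusted p = 1.4e-05). The call with the floor lay close to both limits. Without PEG replicate 1 the log2 fold change was 1.92 (adjusted p = 9.8e-04). Without any other single array the adjusted p exceeded 0.01, namely 0.019 without PEG replicate 2, 0.024 without PEG replicate 3, 0.031 without untreated replicate 1, 0.027 without untreated replicate 2 and 0.031 without untreated replicate 3. When only features above 4 on at least 3 of the 6 arrays were kept, AT4G36700 was called with any array but PEG replicate 1 left out. This setting was added with the values known.

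**Figure D2:**
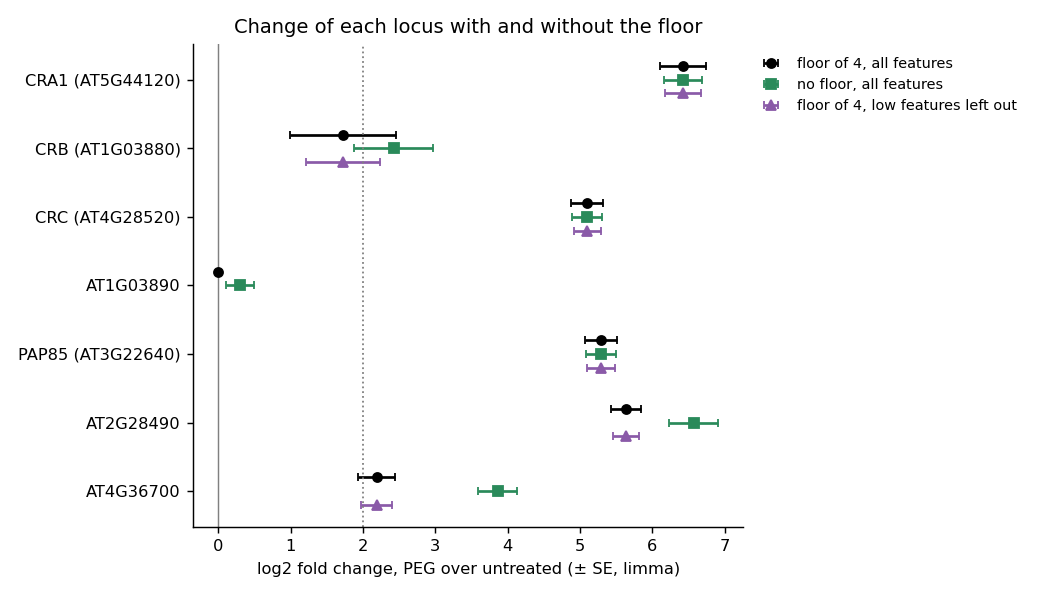
Log2 fold change of each locus, PEG over untreated (horizontal axis, ± SE from limma), with the floor of 4, without it, and with the floor after low features were left out; the dotted line marks the limit of 2. CRA1, CRC and PAP85 did not move with the floor, while AT2G28490 had 5.64 with it and 6.57 without it and AT4G36700 had 2.19 and 3.86. AT1G03890 lies at 0 with the floor and was removed by the filter.

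**Figure D3:**
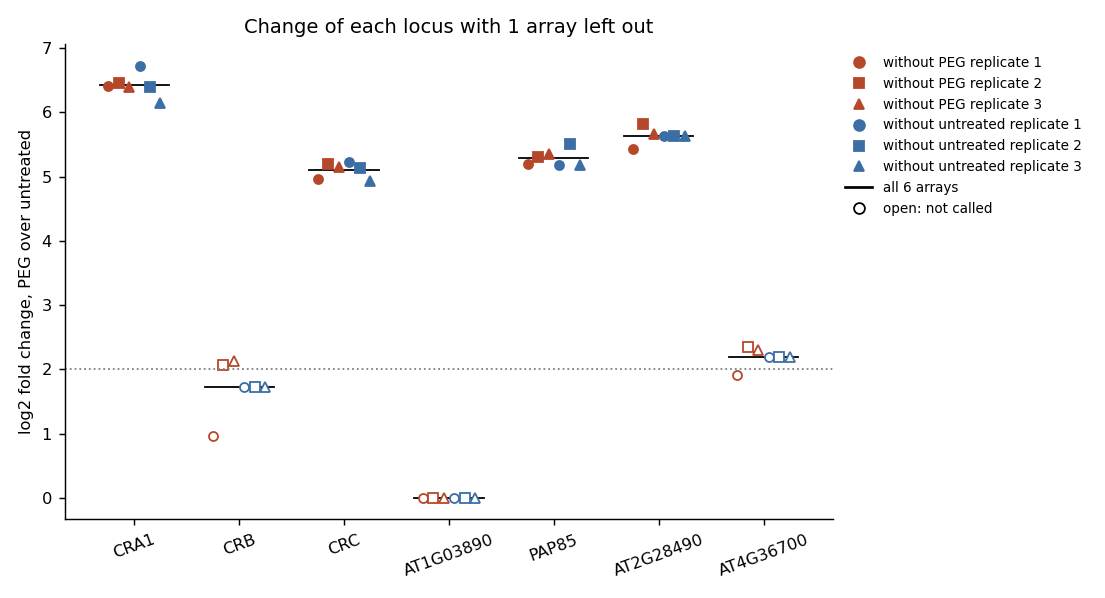
Log2 fold change of each locus, PEG over untreated (vertical axis), after each of the 6 arrays was left out, with floored values; the horizontal bar is the value from all arrays, and filled symbols passed both limits. CRA1, CRC, PAP85 and AT2G28490 stayed called in every case, and CRB dropped to 0.96 without PEG replicate 1.

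The fitted changes of the members were set side by side. With the floor, the order was CRA1 (6.42), AT2G28490 (5.64), PAP85 (5.29), CRC (5.10), AT4G36700 (2.19), CRB (1.72) and AT1G03890 (0.00), where the values of AT2G28490, AT4G36700 and CRB are lower bounds because their untreated arrays lay under the floor. For each of the 21 pairs of loci, the log2 difference between both loci on an array was compared between PEG and untreated arrays by a two-sided exact permutation test, for which 3 against 3 arrays cannot give a p under 0.1. No difference between members could therefore pass 0.05. The 6 pairs with AT1G03890 are left out of what follows, because this locus lay at the floor on all arrays. Of the other 15 pairs, 11 reached the smallest exact p of 0.1 (0.136 after Benjamini-Hochberg adjustment over the 15 pairs). How often other pairs of genes reach this p was not counted. For AT2G28490, AT4G36700 and CRB, all untreated values counted as 4. With the floor, pairs among these loci therefore compared only PEG levels of different features, and cannot show whether their changes differed. Among the loci above the floor in both groups, CRA1 had a change 1.32 larger than that of CRC and 1.13 larger than that of PAP85, both at this smallest p. CRA1 and CRB differed by 4.70 with the floor and by 4.00 without it. The 4 pairs that gave a larger exact p were all neighbours in the order. They were CRA1 and AT2G28490 (0.79 more in CRA1, exact p = 0.2), PAP85 and AT2G28490 (difference of -0.35, p = 0.3), CRC and PAP85 (-0.19, p = 0.7), and CRB and AT4G36700 (-0.47, p = 0.4). Without the floor, 12 of the 15 pairs reached the smallest p, and the difference between CRA1 and AT2G28490 was -0.15 (exact p = 0.9). PAP85 and AT2G28490 then differed by -1.28, at the smallest exact p of 0.1.

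**Figure D4:**
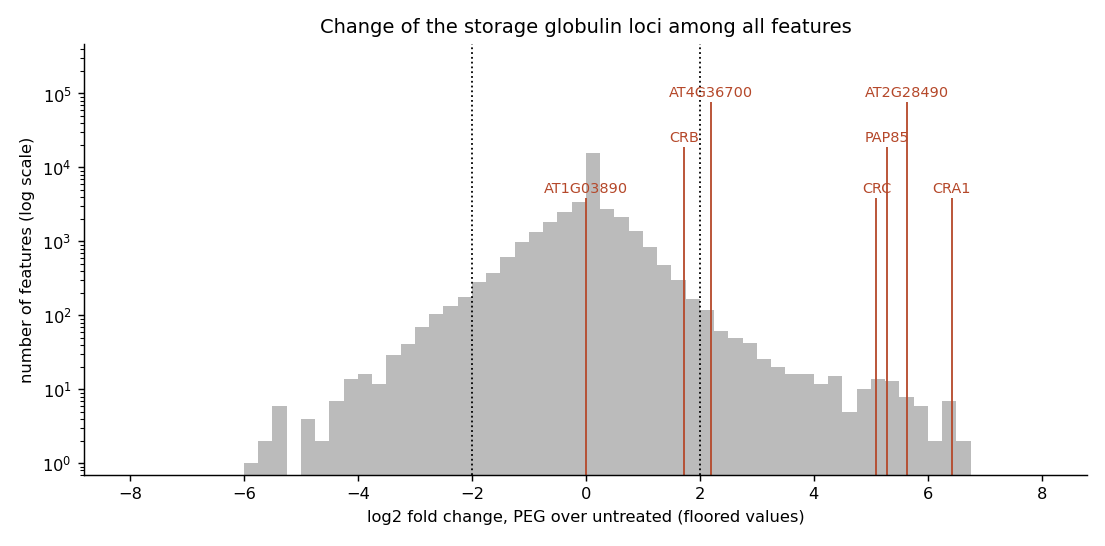
Number of features (vertical axis, log scale) by log2 fold change, PEG over untreated, with floored values (horizontal axis, bins of 0.25), and the 7 loci as vertical lines whose heights carry no value; dotted lines mark the limits of -2 and 2. CRC, PAP85, AT2G28490 and CRA1 lie at 5.10 to 6.42, in the upper tail, and AT1G03890 lies in the bin that also holds all features at the floor.

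PEG replicate 1 carried the highest of the 3 PEG values in 6 of the 7 loci, the exception being CRA1, where PEG replicate 3 was the highest. Its median deviation from the mean of the PEG arrays was 0.29 over the 7 loci and -0.02 over all genes. Among all genes, PEG replicate 1 was the highest PEG array in 32.5 %, and among the 303 genes called higher, which include 5 of the loci, it was so in 71.9 %. Untreated replicate 2 was the highest untreated array in 4 of the 7 loci and in 57.1 % of all genes. The part of these arrays in the change of the loci is given by the values with each array left out. With the floor, the 4 largest changes kept their call without PEG replicate 1, whereas CRB and AT4G36700 lay under a log2 fold change of 2 without it. The untreated arrays of CRB and AT4G36700 lay under the floor, so their changes in these fits are lower bounds. Leaving out an array without the floor was not tested.

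Among non-member genes, the 3 whose values lay nearest to those of CRA1 were sought by Euclidean distance over the 6 arrays. They were AT1G68250 (distance 1.19), RAB18 (AT5G66400, a dehydrin; 2.16) and AT3G02480 (2.85), out of 27980 genes that include the other members. Of the members, CRC (2.02) and PAP85 (2.07) lay nearer to CRA1 than RAB18 did. AT1G68250 averaged 11.72 on the PEG arrays and 5.75 on the untreated arrays. RAB18 averaged 11.21 after PEG and 4.63 in untreated seeds. Such a distance depends on the level of each feature as well as on the difference between the groups. Levels of different features depend on their probes, so the distance is no measure of how alike the changes were.

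In the other class of seed storage proteins, the 2S albumins, 1 of 5 genes was called higher, against 1.08 % of all genes. SESA5 (AT5G54740) had 9.97, 9.22 and 9.16 on the PEG arrays, against 4.26, 4.30 and 3.90 on the untreated arrays. SESA5 rose by 5.26 on the log2 scale (SE 0.27, limma adjusted p = 8.6e-04). SESA2 averaged 5.24 after PEG and 4.04 in untreated seeds (adjusted p = 0.098), SESA1 and SESA3 had log2 fold changes of -0.08 and -0.04 (adjusted p = 1 for both), and SESA4 lay under the floor on all arrays. The adjusted p of SESA2 was 0.012 without the floor and 0.0063 with low features removed, where its change stayed under the limit of 2. The median of the 5 albumins was 0.00, which is the value the floor gives SESA4. It therefore cannot be compared with the median of all genes. SESA1, SESA2, SESA3 and SESA4 lie in 1 cluster of similar genes, and whether their probes tell them apart was not tested. Of 3 further vicilin-like or legumin-like cupin genes, AT2G18540 rose. It had 8.02, 7.71 and 7.66 on the PEG arrays, against 2.12, 2.82 and 3.22 on the untreated arrays. The log2 fold change was 3.80 (SE 0.11, limma adjusted p = 2.5e-04). All untreated values lay under the floor, so 3.80 is a lower bound, and the change was 5.08 without the floor. AT1G07750 had 0.18 (adjusted p = 0.35), and AT2G28680 lay under the floor throughout.

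Of 11 transcription factors listed as activators of storage protein genes, 2 were called higher and none lower, with a median log2 fold change of 0.04. Of all genes, 1.08 % were called higher and 1.64 % lower. ABI5, a bZIP factor of the ABA response in seeds, had 8.94, 8.93 and 8.99 on the PEG arrays, against 5.66, 5.62 and 5.73 on the untreated arrays (log2 fold change 3.29, SE 0.04, limma adjusted p = 5.2e-05). EEL, a related bZIP factor that is known to compete with ABI5 at the EM1 promoter, and so need not act as an activator, averaged 9.40 after PEG and 4.95 in untreated seeds (4.45, SE 0.12, adjusted p = 2.0e-04). ABI3, the B3 factor that acts on cruciferin promoters through RY elements, had 8.90, 8.80 and 8.75 on the PEG arrays, against 6.43, 7.57 and 7.39 on the untreated arrays. ABI3 lay higher after PEG on all arrays, but its change of 1.69 (SE 0.34, limma adjusted p = 0.027) passed neither limit. Its adjusted p was 0.0014 without the floor and 4.6e-04 with low features removed, at the same change, so that only the limit on the fold change was then missed. FUS3, LEC2, LEC1 and DPBF2 (bZIP67, which acts on the CRC promoter together with NF-Y subunits) lay under the floor on all 6 arrays. BZIP53, BZO2H1 (bZIP10) and BZIP25, which act on albumin and cruciferin promoters, had -0.36, 0.52 and 0.04 (adjusted p = 0.096, 0.030 and 0.76), and ABI4 had 0.37 (0.39). The adjusted p of BZO2H1 was 0.028 without the floor and 0.0085 with low features removed.

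Of 6 genes listed as repressors, none was called in limma, against 2.72 % of all genes called in either direction. ASIL2, a trihelix factor that restrains the maturation programme in seedlings, passed the limit on p only, with a log2 fold change of 0.84 (adjusted p = 0.0027). The B3 repressors HSI2 (VAL1) and HSL1 (VAL2) had 0.96 (adjusted p = 0.027) and 0.22 (0.31), and VAL3 lay under the floor on all arrays. For HSI2, as for ABI3, the adjusted p in limma was lower in other settings. It was 0.0043 without the floor and 0.0013 with low features removed, so that only the limit on the fold change was then missed. PKL, a chromatin remodelling factor that represses embryonic genes, had 0.02 (adjusted p = 1), and ASIL1 had -0.35 (0.39).

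Among 15 genes for folding, processing and vacuolar sorting of globulins, 1 was called higher and 1 lower, with a median log2 fold change of 0.20. The shares over all genes were 1.08 % higher and 1.64 % lower. BETA-VPE, the vacuolar processing enzyme mainly found in seeds, had 10.22, 10.07 and 10.12 on the PEG arrays, against 6.55, 7.10 and 7.20 on the untreated arrays (3.19, SE 0.20, limma adjusted p = 0.0013). It was called in 4 of the 6 fits with 1 array left out. With all 6 arrays, its limma adjusted p was 7.1e-06 without the floor and 9.4e-07 with low features removed. GAMMA-VPE had 0.29 (adjusted p = 0.19), DELTA-VPE had 0.36 (0.33), and ALPHA-VPE lay under the floor throughout. The sorting receptor VSR1, which carries storage proteins towards the vacuole, had a change of 1.66 (adjusted p = 0.0018), RMR1 had 0.97 (0.0022) and GRV2 had 0.84 (9.3e-04), so that they passed the limit on p but not on the fold change. BIP1, a chaperone of the endoplasmic reticulum, fell, with 4.52, 4.88 and 4.63 on the PEG arrays, against 7.002, 6.452 and 6.928 on the untreated arrays (-2.12, SE 0.19, limma adjusted p = 0.0033). This call was kept in 1 of the 6 fits with 1 array left out. With all 6 arrays, the limma adjusted p of BIP1 was 5.6e-05 without the floor and 1e-05 with low features removed. Its near-identical copy BIP2 had -0.55 (adjusted p = 0.027), and how their probes share signal was not tested. The protein disulfide isomerase PDIL1-2 had -0.95 (0.0031), and PDIL1-1 had -0.05 (1).

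Markers of seed parts and stages were set beside these values. EM1 and GEA6 (EM6), late embryogenesis abundant genes of the dry seed, rose by 6.10 (limma adjusted p = 3.1e-04) and by 5.76 (4.2e-04). Of 2 endosperm markers, MAN7, a mannanase, rose by 2.88 (adjusted p = 6.0e-04), and EPR1, an extensin-like gene of the micropylar endosperm, had -0.98 (0.029). Thus 1 endosperm marker was higher and the other had the opposite sign, with values of 6.46 to 8.61 on PEG arrays and 5.42 to 7.69 on untreated arrays, and neither was near 0. The part of the endosperm in the levels of the storage globulins was not tested. Of 3 markers of germinated seeds none was called, against 2.72 % of all genes, and PCK1 had -0.46 (adjusted p = 9.7e-04).

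**Figure D5:**
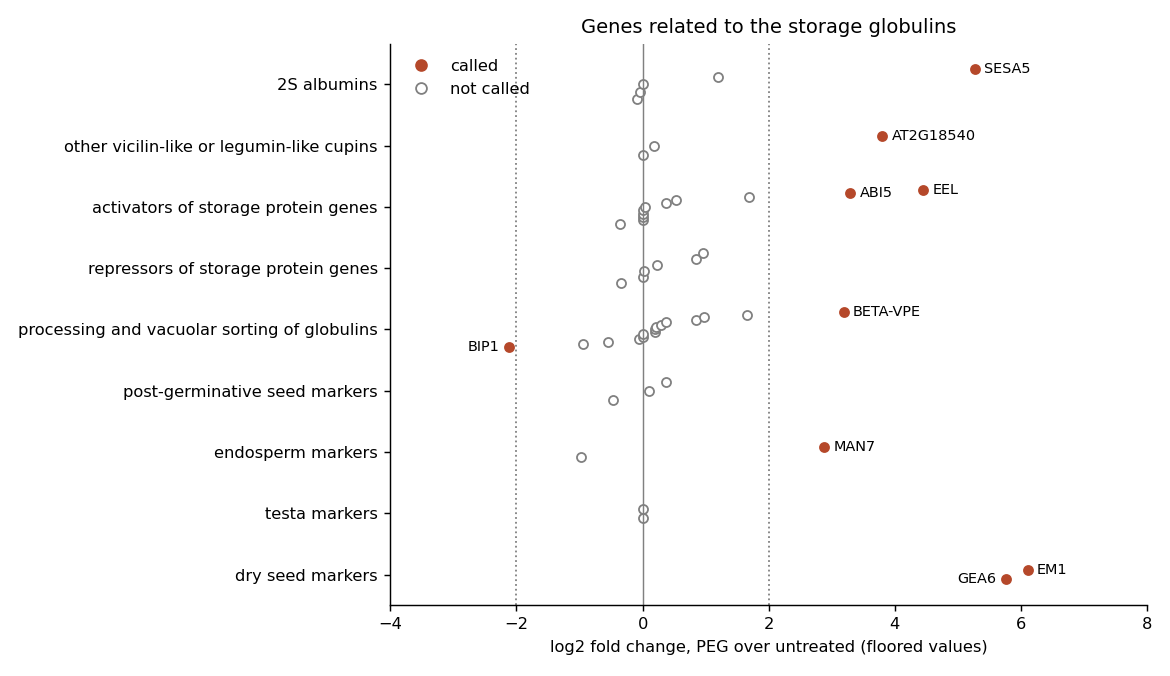
Log2 fold change, PEG over untreated, with floored values (horizontal axis) of the 49 genes related to the storage globulins, 1 point per gene and 1 row of points per list; filled points passed both limits and carry their names, and dotted lines mark -2 and 2. SESA5, AT2G18540, EEL, ABI5, BETA-VPE, MAN7, EM1 and GEA6 lie to the right of 2, and BIP1 to the left of -2.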

How the data were processed

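Biotin-labelled cDNA from total RNA (50 ng) was hybridized to Affymetrix arrays. The authors deposited log2 expression values of 35986 gene models for 3 PEG and 3 untreated arrays. Per the labels they were made with RMA, and the methods of the study name a custom probe definition for its ABA arrays. Values had not been floored. Arrays were grouped by their titles. Values under 4 were set to 4, and the PEG and untreated arrays were then fitted by lmFit and eBayes of limma 3.58.1 (R 4.3.3) without covariates. Pairs of loci were compared with scipy 1.17.1 under Python 3.11.15. Of 27981 loci, 27241 matched the TAIR10.1 gene table, used for symbols and for the order of genes. The fit was checked on simulated data, with changes added only to features whose untreated mean lay above the floor. A rise from under the floor, as in AT2G28490, AT4G36700 and CRB, was not simulated. With arrays, the number of replicates (3 per group) sets the precision. The members and gene lists were chosen with earlier results of these data known. All 7 loci and all genes of the lists that were called are named, with the 3 non-member genes nearest to CRA1. Alternatives were the floor, both limits, scaling, a filter on low values (above 4 on at least 3 arrays), the prior, 1 feature per gene, a fit with the replicate number as block, and the omission of each array in turn. A comparison of promoter and protein sequences had been planned and was not run here.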

Additional observations from a re-analysis of the deposited data

How the results depend on the processing

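CRA1, CRC, PAP85 and AT2G28490 kept their direction and their call in all alternatives except the replicate number as a block. The block left 25 called features, 0 called loci of the family and 0 of its features (adjusted p of 0.018 to 0.051 for the 5 called loci, limma; 0.28 for CRB), with the same fold changes and fewer residual degrees of freedom. Deviations of same-numbered arrays correlated with r = -0.06, 0.14 and 0.11, and PEG replicate 3 correlated best with untreated replicate 1 (0.155). The remaining differently numbered pairs had r of -0.193 to 0.04. With 3 arrays per group, these values do not settle whether the numbers pair the arrays. All features called numbered 990, against 1684 without the floor, 658 with a floor of 5, 3675 at a fold limit of 1 and 589 to 736 with 1 array left out. The count was 589 without PEG replicate 2, 605 without PEG replicate 3, 624 without untreated replicate 1 and 629 without untreated replicate 3. Without the floor, 31.7 % of the calls were higher, against 41.7 % with it. Of the family, 4 to 6 loci were called in the other alternatives: 6 without the floor, where CRB was added, and 4 with a floor of 5, where AT4G36700 had 1.19 (adjusted p = 0.038) and the median change of the loci was 4.64 instead of 5.10. With 1 array left out, 4 loci and 9 features were called in each case, and 4 to 5 loci when low features were also removed, which was added with the values known. With 1 feature per gene, 5 features of the family were called by construction. The related lists had 7 to 10 called genes in place of 9. CRB had 0.76 to 2.43 over all alternatives (adjusted p of 0.0043 to 0.73 in the planned ones). For the 12085 features at the floor on all arrays, no fold can be measured.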

Other observations

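The genes that lie next to each storage globulin locus in the gene table were looked up, a choice made with the values known. Of 12 such genes outside the family, 2 were called, both lower, and 4 lay under the floor on all arrays. Over all 27981 genes, 1.64 % were called lower and 2.72 % in either direction, and 10760 lay at the floor on all arrays. FLA9 (AT1G03870), the neighbour of CRB, had a log2 fold change of -5.00 (limma adjusted p = 1.5e-06), and ABCI21 (AT5G44110), the neighbour of CRA1, had -2.39 (adjusted p = 0.0059). The 12 neighbours ranged from -5.00 to 0.96 with a median of 0.00, and ATU2AF65A, next to AT4G36700, had the highest value (adjusted p = 0.0066).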
